A study of Mus musculus with 5 samples.

Results

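The genes described here are 6 transcription factors that drive the epithelial to mesenchymal transition (Snai1, Snai2, Twist1, Twist2, Zeb1 and Zeb2) and 4 markers of the mesenchymal state (Cdh2, Vim, S100a4 and Axl). They were chosen by name, with earlier results of these data known, and every probe set annotated to exactly 1 of them was taken. This gave 15 of 22626 probe sets on an Affymetrix mouse expression array, for 10 of 12393 genes. The cells were ID8, a line derived from mouse ovarian surface epithelium, which grows as tumours with ascites when placed in the peritoneum. ASid8 cells had been grown in DMEM with 10% ascites fluid from mice bearing ID8 tumours (2 arrays, replicates 2 and 3), for 7 days according to the series design. The comparison group, id8, was the parental line kept in the same base medium with 10% FBS, fetal bovine serum (3 arrays, replicates 1, 2 and 3). Whether the ascites medium also held FBS and how long the FBS culture lasted are not settled by the labels. All arrays came from the same cell line, and whether replicates were separate cultures is not stated, so a p value here measures array-to-array spread that may be technical.

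Epithelial to mesenchymal transition is the loss of junctions and apical polarity by epithelial cells and their gain of a motile, spindle-shaped form. Snail and Zeb proteins are zinc finger repressors that bind E-boxes in the promoters of epithelial genes such as Cdh1 (E-cadherin), and Twist proteins are basic helix-loop-helix factors that bind E-boxes as dimers. The markers are gained or retained during the change: Cdh2 encodes N-cadherin, Vim the intermediate filament protein vimentin, S100a4 a calcium-binding protein tied to cell motility, and Axl a receptor tyrosine kinase. Ovarian surface epithelium is itself a modified mesothelium, which normally carries vimentin and N-cadherin together with keratins.

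The array values are log2 signals, and changes are ASid8 minus id8, given with a standard error (SE). Adjusted p values come from limma, by the Benjamini-Hochberg method over all 22626 probe sets. The threshold was 0.05, and 982 probe sets (4.34%) passed it, 538 upward (2.38%) and 444 downward (1.96%). Levels of different probe sets are not amounts of RNA that can be set against each other. The arrays carry no detection call. Signals at or below 6.37 were therefore taken as not shown to lie above background. This is the 90th percentile of 41 probe sets for 27 genes restricted to other tissues, and 60.5% of all probe sets lay above it.

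The arrays did not lie evenly apart. The difference between ASid8 replicates 2 and 3 had an SD of 0.236 over probe sets. Between id8 replicates 1 and 2 it was 0.130, with 0 probe sets differing at least 2-fold, whereas id8 replicate 3 stood apart from them (SDs of 0.411 and 0.406, with 746 and 733 probe sets differing at least 2-fold). Values without id8 replicate 3 are therefore also given for the measurable genes described here and for the lists of related genes. Calls also rested on which arrays were used. Leaving out id8 replicate 1 or id8 replicate 2 left 0 of 22626 probe sets past the threshold (3652 and 3474 at an unadjusted p below 0.05). Leaving out id8 replicate 3, which removes as many arrays, gave 3559 (15.7%). Every call below shares this limit. The labelled cell type's markers were mixed. Krt19 was at 12.12 or more and Msln at 11.46 or more on all arrays, whereas Bnc1, Upk3b and Wt1 were lower on both ASid8 arrays than on any id8 array, and Cdh1 (5.73 to 5.80) and Epcam (5.61 to 6.05) were at background level.

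In ascites, the factor Snai2 rose 3.04-fold and the marker S100a4 fell 3.93-fold. These were the 2 of 15 probe sets that passed the threshold, against 4.34% of all probe sets, or 2 of the 11 above the limit for dim signals, against 6.54% of all such probe sets. At an unadjusted p below 0.05 there were 8 of the 15, against 22.9% of all. Of these 8, 3 target the same Vim transcript. With 1 probe set per gene there were 5 of 10, against 3012 of 12393. Because the genes were chosen with earlier results of these data known, no excess is read from these shares. Without id8 replicate 3, 3 of the 15 passed (Snai2, Zeb2 and S100a4), against 15.7% of all in that fit. The other factors with a measurable signal divided: Zeb2 and Zeb1 were higher in ASid8 on every array and Twist2 was lower on average, without passing. All 3 Vim probe sets and both Cdh2 probe sets were lower on average in ASid8, and Axl was about level. Snai1 and Twist1 were at background in both groups.

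**Figure D1:**
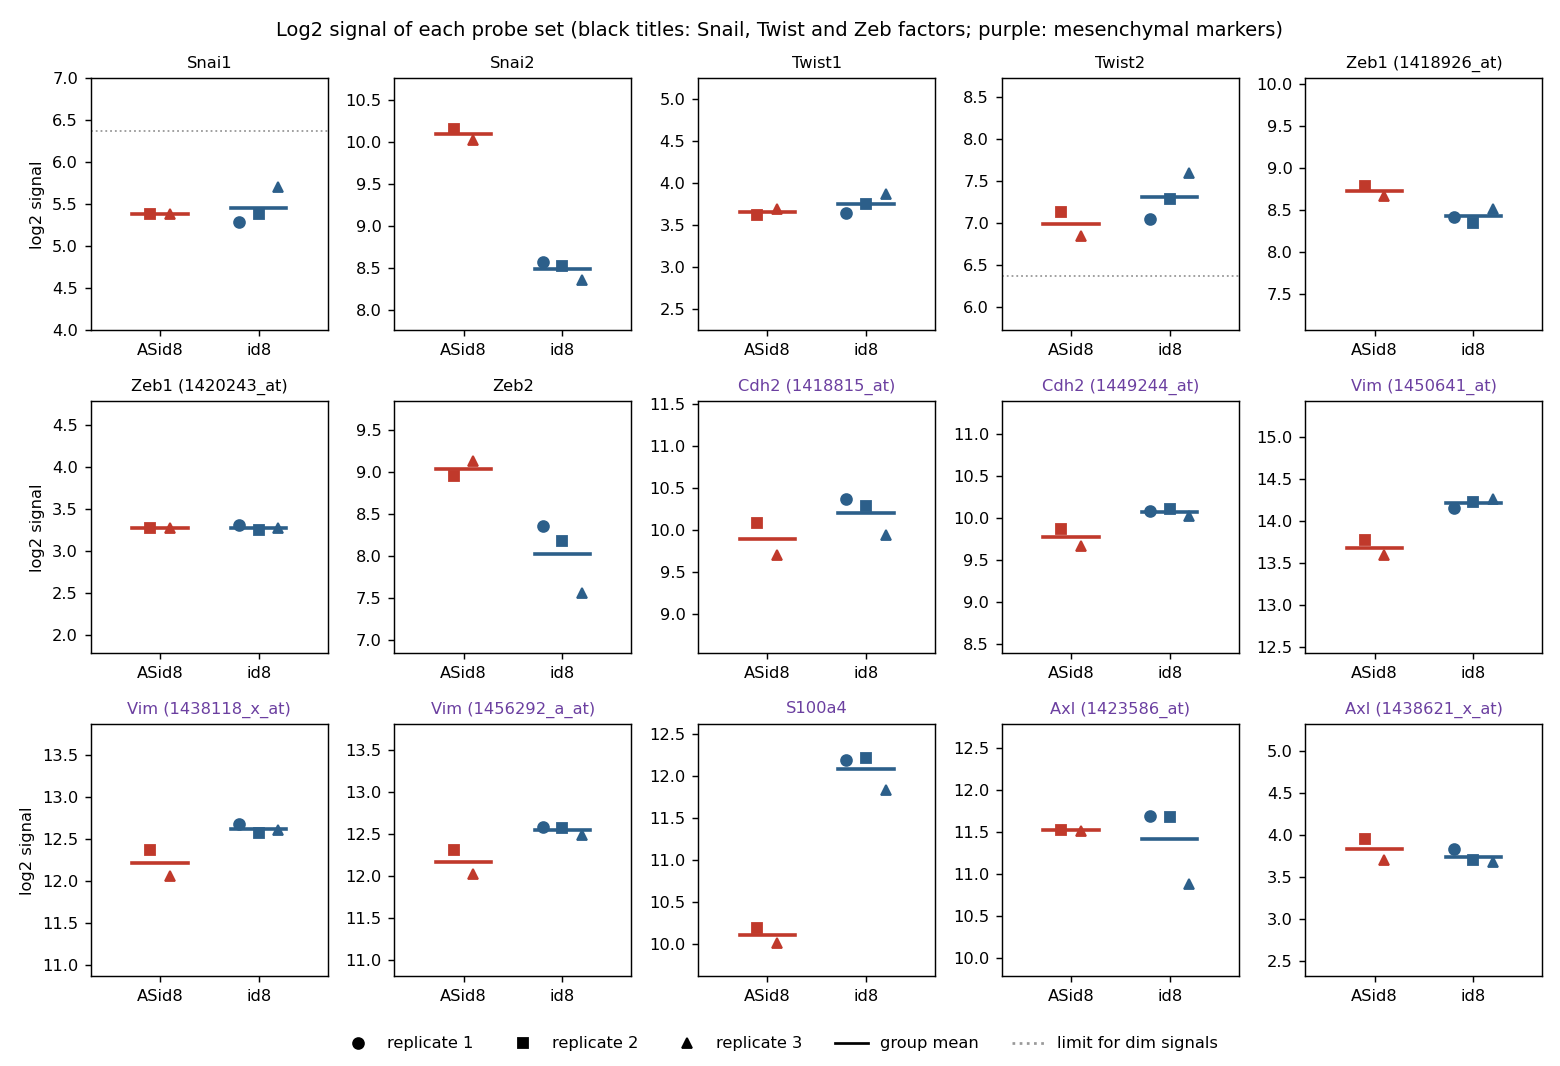
Log2 signal on each array (vertical axis, 3 log2 units in every panel) for the 15 probe sets, with the 2 ASid8 arrays left of the 3 id8 arrays, marker shapes for replicates and bars for group means. Snai2 lies at 10.03 or above in ASid8 and at 8.58 or below in id8, and S100a4 at 10.20 or below in ASid8 and at 11.84 or above in id8.

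Sequence upstream of RefSeq start sites (GRCm38.p6) was used for 7 of the 10 genes: Snai1, Twist1, Twist2, Zeb2, Vim, S100a4 and Axl. Snai2, Zeb1 and Cdh2 were not searched. The 250 bases upstream of each start were searched on both strands for the E-box CAGGTG, which reads CACCTG on the opposite strand, the form that Snail and Zeb proteins prefer. It was present in 1 of the 10 promoters of these genes (Zeb2 has 4 annotated starts, of which 2 overlap) and in 17.2% of 32851 mouse promoters. The match was upstream of Snai1, with its first base at position -126, where -1 is the last base before the start. Snai1 was at background here, as was Twist1, which had no match. Of the 4 epithelial genes that fell, only Krt18 and Cldn3 were searched, Krt19 and Esrp2 not. Krt18 had a match at position -214 and Cldn3 had none. The windows of Snai1 (chr2:167537945-167538194, + strand) and Krt18 (chr15:102027966-102028215, + strand) are shown because they hold the E-box, printed in capitals. Those of S100a4 (chr3:90603520-90603769, + strand) and Vim (chr2:13574061-13574310, + strand) are shown because these markers were lower in ASid8, and they hold no match.
Snai1: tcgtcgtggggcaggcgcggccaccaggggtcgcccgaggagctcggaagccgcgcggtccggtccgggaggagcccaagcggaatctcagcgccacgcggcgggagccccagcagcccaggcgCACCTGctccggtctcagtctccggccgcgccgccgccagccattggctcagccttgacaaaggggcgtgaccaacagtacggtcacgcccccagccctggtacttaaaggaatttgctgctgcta
Krt18: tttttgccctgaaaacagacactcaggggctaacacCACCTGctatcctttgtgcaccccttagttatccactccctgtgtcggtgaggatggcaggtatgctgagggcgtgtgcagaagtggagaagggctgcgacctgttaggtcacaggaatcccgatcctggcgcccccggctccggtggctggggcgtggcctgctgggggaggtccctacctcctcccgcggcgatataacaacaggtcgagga
S100a4: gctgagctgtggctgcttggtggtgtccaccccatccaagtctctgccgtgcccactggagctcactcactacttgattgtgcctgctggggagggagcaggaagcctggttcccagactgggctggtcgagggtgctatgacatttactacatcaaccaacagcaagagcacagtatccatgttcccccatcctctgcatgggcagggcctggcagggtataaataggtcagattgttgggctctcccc
Vim: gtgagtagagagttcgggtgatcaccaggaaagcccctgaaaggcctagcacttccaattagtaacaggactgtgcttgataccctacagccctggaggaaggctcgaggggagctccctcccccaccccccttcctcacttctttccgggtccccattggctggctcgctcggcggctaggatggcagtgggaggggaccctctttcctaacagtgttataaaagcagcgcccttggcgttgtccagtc

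Snai2, also called Slug, gave log2 signals of 10.16 and 10.03 on the ASid8 arrays, against 8.58, 8.53 and 8.36 on the id8 arrays. The groups did not overlap, and each differed within itself by far less than they differed from each other. The means were 10.09 ± 0.09 in ASid8 (SD, n = 2) and 8.49 ± 0.12 in id8 (SD, n = 3), a log2 change of 1.60 (SE 0.09, adjusted p = 0.0173) or 3.04-fold (95% confidence interval 2.55 to 3.62). Of all 22626 probe sets, 124 (0.548%) rose at least as far. The adjusted p was 0.0109 without id8 replicate 3. It was 0.0950 without ASid8 replicate 2, 0.131 without ASid8 replicate 3, 0.149 without id8 replicate 1 and 0.153 without id8 replicate 2, while the change stayed between 1.54 and 1.67.

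Snai1, the founding member of the Snail family, read 5.39 and 5.39 in ASid8, against 5.29, 5.39 and 5.71 in id8. All 5 values lay below the limit of 6.37, so its fitted change is not read as a difference and no fold is given. The Snail genes therefore differed in what could be measured: Snai2 lay well above background on every array and Snai1 on none.

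The Zeb genes encode large repressors with a zinc finger cluster at each end. Zeb2 read 8.96 and 9.13 in ASid8, against 8.36, 8.18 and 7.56 in id8. The groups did not overlap, but id8 replicate 3 was 0.71 below the mean of the other id8 arrays. The change was 1.01 (SE 0.27), or 2.02-fold with an interval of 1.22 to 3.34, and did not pass the threshold (adjusted p = 0.126). With that array left out the change was smaller, 0.78, and passed (adjusted p = 0.0370).

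Zeb1 had 1 probe set with a measurable signal, at 8.79 and 8.66 in ASid8, against 8.42, 8.34 and 8.51 in id8. The groups did not overlap, and the change was 0.30 (SE 0.08, adjusted p = 0.124), or 1.23-fold with an interval of 1.06 to 1.43. Its other probe set was at background, with 3.27 and 3.27 in ASid8 and 3.25 to 3.31 in id8. The first probe set also stayed short of the threshold without id8 replicate 3 (adjusted p = 0.0699).

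Twist2 read 7.13 and 6.84 in ASid8, against 7.05, 7.29 and 7.60 in id8. The groups overlapped, and the change of -0.33 (SE 0.20, interval -0.86 to 0.21, adjusted p = 0.420) did not pass, nor did it without id8 replicate 3 (-0.18, adjusted p = 0.496). Twist1, which acts in mesoderm and neural crest, read 3.61 and 3.69 in ASid8 and 3.64 to 3.87 in id8, near the bottom of the array (percentiles 5.87 to 9.14 of all probe sets).

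Among the markers S100a4 moved furthest. It read 10.20 and 10.02 in ASid8, against 12.19, 12.22 and 11.84 in id8. Both ASid8 arrays lay more than 1 log2 unit below every id8 array. The means were 10.11 ± 0.13 in ASid8 (SD, n = 2) and 12.08 ± 0.21 in id8 (SD, n = 3). The log2 change was -1.97 (SE 0.15, adjusted p = 0.0206), or 3.93-fold lower with an interval of 2.97 to 5.19, and 124 probe sets (0.548%) fell at least as far. The adjusted p was 0.0104 without id8 replicate 3, 0.102 without ASid8 replicate 2, 0.131 without ASid8 replicate 3, 0.151 without id8 replicate 1 and 0.153 without id8 replicate 2, with changes of -2.10 to -1.88.

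Vim was one of the brightest genes on the array, with its brightest probe set between the 98.8th and 99.5th percentiles. That probe set read 13.78 and 13.59 in ASid8, against 14.15, 14.23 and 14.26 in id8. Its change of -0.53 (SE 0.08), or 1.44-fold lower with an interval of 1.24 to 1.68, did not pass the threshold (adjusted p = 0.0510). The adjusted p was 0.0561 without id8 replicate 3, and between 0.0240 and 0.0465 when 1 probe set was kept per gene, dim probe sets were left out, or other normalization, variance or weighting choices were made. It was 0.187 with id8 replicates 1 and 2 averaged, 0.292 with the replicate number as a block, and 0.101 to 0.230 with 1 of the other arrays left out.

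The other Vim probe sets, which target the same transcript and are no independent evidence, behaved alike. The second brightest read 12.37 and 12.06 in ASid8 against 12.58 to 12.68 in id8, a change of -0.41 (adjusted p = 0.129). The dimmest read 12.31 and 12.03 in ASid8 against 12.49 to 12.59 in id8, a change of -0.38 (adjusted p = 0.128). Without id8 replicate 3 these changes were -0.42 and -0.41 (adjusted p = 0.158 and 0.124). In all of them the ASid8 arrays lay below every id8 array, and ASid8 replicate 3 lay below ASid8 replicate 2.

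Cdh2, which joins cells of mesenchymal and mesothelial type, had a pair of probe sets with nearly the same mean change. On the slightly brighter one it read 10.09 and 9.70 in ASid8, against 10.37, 10.29 and 9.94 in id8, and the groups overlapped through id8 replicate 3 (change -0.31, SE 0.19, adjusted p = 0.435). On the other it read 9.87 and 9.67 in ASid8, against 10.08, 10.11 and 10.03 in id8, with no overlap (change -0.30, SE 0.08, adjusted p = 0.124). Neither passed without id8 replicate 3 (adjusted p = 0.200 and 0.115).

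Axl read 11.53 and 11.52 in ASid8, against 11.69, 11.68 and 10.88 in id8. The ASid8 arrays lay inside the range of the id8 arrays, in which replicate 3 was 0.80 below the mean of the other id8 arrays. The change was 0.11 (SE 0.29, interval -0.68 to 0.90, adjusted p = 0.860), and its sign turned without id8 replicate 3 (-0.16, adjusted p = 0.0725). A difference of up to 1.86-fold higher or 1.60-fold lower in ASid8 is within the interval. The other Axl probe set was at background, at 3.95 and 3.70 in ASid8 and 3.68 to 3.83 in id8.

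**Figure D2:**
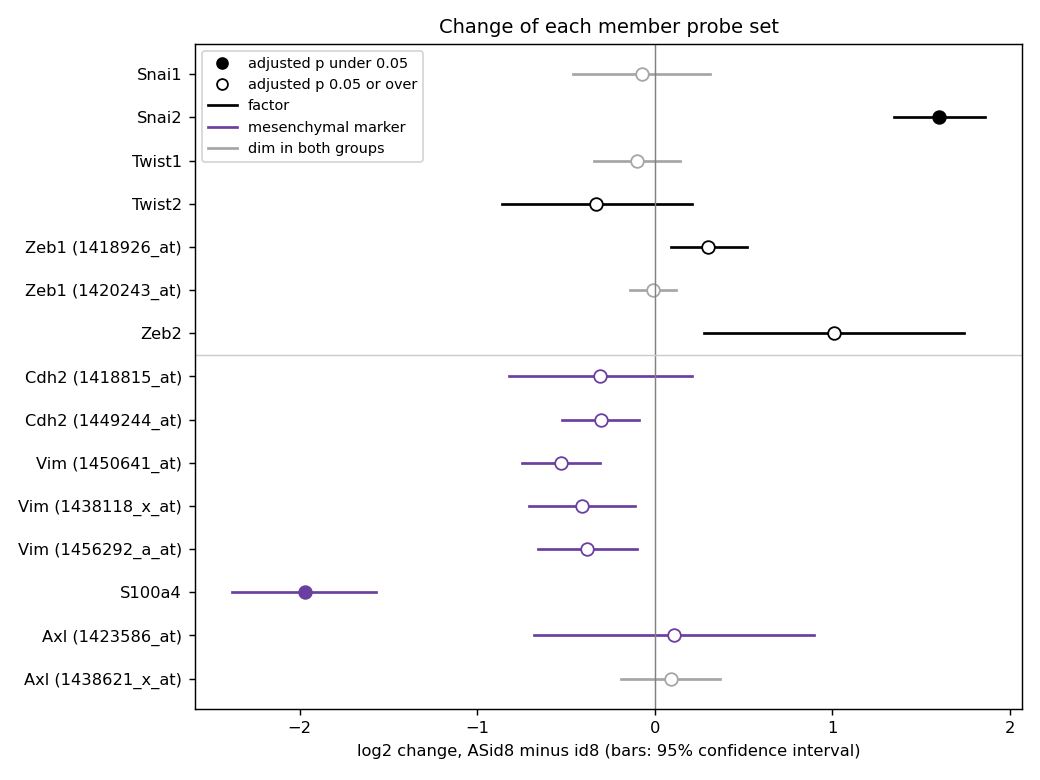
Log2 change (ASid8 minus id8) of the 15 probe sets with its 95% confidence interval, factors above and mesenchymal markers below, with filled points for adjusted p under 0.05 and grey for probe sets dim in both groups. Snai2 lies at 1.60, S100a4 at -1.97, and all other points lie between -0.53 and 1.01.

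Set side by side, the factors and the markers with a measurable signal had 1 call each. Their changes leaned opposite ways, but neither set was uniform. Of 7 factor probe sets, 4 lay above the limit for dim signals. Of these, 3 (Snai2, Zeb1 and Zeb2) had every ASid8 array above every id8 array, and the fourth was Twist2. Of 8 marker probe sets 7 lay above that limit, and 5 of them (3 of Vim, 1 of Cdh2 and that of S100a4) had every ASid8 array below every id8 array. Over all probe sets, dim ones included, the groups did not overlap for 36.5%, with ASid8 higher for 19.3% and lower for 17.2%. The share among probe sets above the limit was not calculated. Counted on the same footing, 3 of all 7 factor and 5 of all 8 marker probe sets did not overlap. With 1 probe set per gene, ASid8 lay higher without overlap for 3 of 10 genes, all factors, and lower for 2, Vim and S100a4. Over all genes the counts were 2305 and 2399 of 12393. On the brightest probe sets of Cdh2 and Axl the groups overlapped, and Axl changed by 0.11. The median change was 0.66 over the 4 measurable factor probe sets and -0.38 over the 7 measurable marker probe sets, against 0.01 over all probe sets. Of those 7, 3 target the same Vim transcript. Over all 7 factor and all 8 marker probe sets, dim ones included, the medians were -0.01 and -0.34.

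The arrays within each group also differed. After centring each probe set on its mean over the 5 arrays, the measurable factors averaged 0.44 and 0.34 on ASid8 replicates 2 and 3, against -0.22, -0.24 and -0.32 on id8 replicates 1, 2 and 3. The measurable markers averaged -0.21 and -0.44 on the ASid8 arrays, against 0.30, 0.29 and 0.06 on the id8 arrays. On these averages id8 replicate 3 was closest to the ASid8 arrays for the markers and furthest from them for the factors. Single probe sets did not all share this. Against the mean of id8 replicates 1 and 2, replicate 3 differed by -0.80 for Axl, -0.37 for S100a4, and -0.39 and -0.06 for Cdh2. For Vim it differed by only 0.07, -0.02 and -0.10. Among the factors it differed by -0.71 for Zeb2, -0.20 for Snai2, 0.13 for Zeb1 and 0.43 for Twist2.

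**Figure D3:**
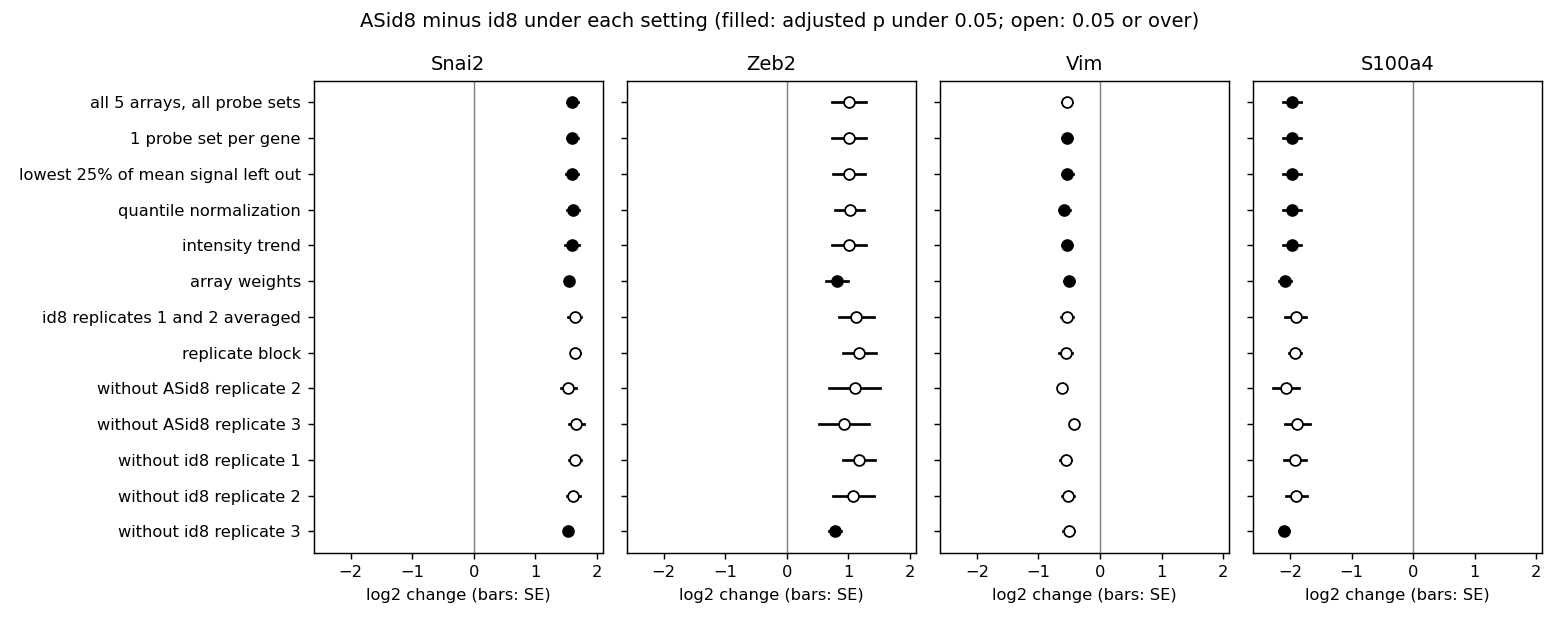
Log2 change (ASid8 minus id8) with its SE for the brightest probe sets of Snai2, Zeb2, Vim and S100a4 under each setting and with each array left out, with filled points for adjusted p under 0.05. The changes stay between 1.54 and 1.67 for Snai2, 0.78 and 1.18 for Zeb2, -0.62 and -0.43 for Vim, and -2.10 and -1.88 for S100a4, while the fill changes with the arrays used.

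For related genes, 1 probe set was taken per gene, of which 4.78% passed over the whole array (2.46% upward and 2.32% downward). In the fit without id8 replicate 3 that share was 17.9% (8.04% upward and 9.85% downward), and list counts from that fit are to be read against it. Of 15 other measured factors tied to the transition, 0 passed by limma (5 at an unadjusted p below 0.05, median change 0.08). The smallest p was that of Zfp281, a zinc finger factor, which read 9.07 and 9.11 in ASid8 against 9.48, 9.58 and 9.69 in id8 (change -0.49, SE 0.08, adjusted p = 0.0552). Hmga2, a chromatin protein that promotes Snail and Twist expression, was chosen after its values were seen. It had a change of 1.65 that did not pass (SE 0.40, adjusted p = 0.104), with 11.57 and 11.53 in ASid8, against 9.54, 9.53 and 10.63 in id8, and without id8 replicate 3 it passed (2.02, adjusted p = 0.0104). The dimer partners of Twist proteins, Tcf3, Tcf4 and Tcf12, changed by 0.11, 0.39 and 0.37 and did not pass. Without id8 replicate 3 Tcf12 narrowly passed (0.23, adjusted p = 0.0489), and Tcf3 and Tcf4 did not. Of the 15 factors, 2 rose and 2 fell without id8 replicate 3, against the 17.9% that passed over all genes.

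Of 19 corepressors and regulators of these factors, 0 passed by limma (5 at an unadjusted p below 0.05, median change -0.02). Ezh2, the histone methyltransferase of the Polycomb complex that Snail proteins can recruit, had the smallest p, at 10.50 and 10.60 in ASid8 against 11.30, 11.32 and 11.70 in id8 (change -0.89, SE 0.15, adjusted p = 0.0590). Leaving out id8 replicate 3 gave 0 risen and 3 fallen, of which Ezh2 (-0.76, adjusted p = 0.0162) was one. That is 3 of 19 genes, near the 17.9% of all genes in that fit.

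Of 22 other mesenchymal markers, 2 rose and 0 fell, and the median change was -0.08. Ddr2, a collagen receptor kinase, rose 3.51-fold, with 9.34 and 9.38 in ASid8, against 7.57, 7.81 and 7.27 in id8 (change 1.81, SE 0.17, adjusted p = 0.0253). Ncam1, a neural cell adhesion molecule, rose 3.12-fold on its brightest probe set, averaging 10.84 ± 0.23 in ASid8 (SD, n = 2) and 9.20 ± 0.07 in id8 (SD, n = 3), with no overlap (change 1.64, SE 0.12, adjusted p = 0.0195). Its next probe sets changed by 1.43, 1.16 and 1.90, and the dimmest pair by 0.16 and 0.14. The probe set with the change of 1.90 did not pass (adjusted p = 0.0893). It was at background in id8, and its ASid8 values lay apart (6.72 and 7.93).

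In the same list 11 of the 22 genes were at background, among them Cdh11, Pdgfrb, Fap and Postn, and the matrix genes above background were lower on average in ASid8 without passing. Fn1, fibronectin, read 10.41 and 10.69 in ASid8 against 12.08, 12.28 and 10.84 in id8 (change -1.18, SE 0.50, adjusted p = 0.265). Lox, a collagen crosslinker, read 9.64 and 10.05 in ASid8 against 11.70, 11.68 and 9.84 in id8 (change -1.23, SE 0.68, adjusted p = 0.388). In both, id8 replicate 3 lay near the ASid8 arrays. Without that array, 3 of the 22 genes rose and 6 fell, Fn1 (-1.63, adjusted p = 0.0203) and Lox (-1.84, adjusted p = 0.0213) among those that fell, against 8.04% and 9.85% of all genes. These examples were chosen after their values were seen.

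Of 26 measured epithelial genes of the kind that Snail and Zeb proteins repress, 4 fell and 0 rose, and the median change was 0.07. Krt18, a simple-epithelial keratin, fell 2.70-fold, with 12.16 and 11.76 in ASid8, against 13.50, 13.53 and 13.15 in id8 (adjusted p = 0.0391). Cldn3, a tight junction protein gene, was 2.13-fold lower (adjusted p = 0.0350), and its other probe sets fell too (adjusted p = 0.0223 to 0.0327). Krt19 was 1.84-fold lower and Esrp2, a splicing regulator of epithelial isoforms, 1.80-fold lower (adjusted p = 0.0466 and 0.0477), although the dimmer Esrp2 probe set changed by -0.19. Cdh1, Epcam and Esrp1 were among the 13 genes of the list that were at background in this line, so no difference could be read for them. The list again had 4 fallen and 0 risen without id8 replicate 3, with Dsp in place of Krt19, against 9.85% of all genes fallen in that fit.

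Of the relatives and ligands of Axl, 0 of 4 passed by limma (1 at an unadjusted p below 0.05). Gas6, the ligand of Axl, read 7.85 and 7.70 in ASid8 against 9.05, 9.05 and 8.21 in id8 (1.99-fold lower, SE 0.31 on the log2 scale, adjusted p = 0.162). The receptor Tyro3 changed by -0.80 (adjusted p = 0.305). Both passed downward without id8 replicate 3 (Gas6 -1.27, adjusted p = 0.0128; Tyro3 -1.11, adjusted p = 0.0469).

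S100a4 lies in a cluster of S100 genes on chromosome 3, where S100a3 is close on one side and S100a5 and S100a6 on the other in the RefSeq gene order of GRCm38.p6. Of 9 other S100 genes, 1 fell and 0 rose (median change -0.17). The one that fell was S100a3, with 6.62 and 6.85 in ASid8, against 8.29, 8.35 and 7.88 in id8, 2.71-fold lower (change -1.44, SE 0.18, adjusted p = 0.0362). S100a6 read 14.26 and 14.28 in ASid8 against 14.88, 14.87 and 14.65 in id8 (change -0.53, SE 0.09, adjusted p = 0.0617), and passed without id8 replicate 3 (-0.60, adjusted p = 0.0132). S100a5 was at background. Other members of the cluster, S100a1, S100a13 and S100a16, changed by -0.22, -0.26 and 0.46 and did not pass.

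Among 9 cadherins, catenins and their partner Fgfr1, 0 passed by limma (1 at an unadjusted p below 0.05, median change -0.05). That gene was Jup, plakoglobin, which read 9.34 and 8.76 in ASid8 against 10.48, 10.47 and 10.15 in id8 (change -1.32, SE 0.22, adjusted p = 0.0578). With id8 replicate 3 left out Jup still did not pass (-1.42, adjusted p = 0.0504), and Ctnnd1, p120-catenin, was the 1 gene of the list that did (-0.63, adjusted p = 0.0387), against 17.9% of all genes. Ctnnb1, beta-catenin, which binds N-cadherin, changed by -0.06. Of 9 intermediate filament genes and partners, 2 fell and 0 rose (median change -0.19), and these were Krt18 and Krt19. Krt7, a simple-epithelial keratin chosen after its values were seen, had the largest change of the list and did not pass (log2 interval -4.32 to 0.32, adjusted p = 0.276), with 5.37 and 5.12 in ASid8, against 5.66 (replicate 3) to 8.08 in id8. Its ASid8 values and id8 replicate 3 were at background. Without that array the 2 that fell were Krt7 (-2.80, adjusted p = 0.0104) and Krt18 (-1.56, adjusted p = 0.0258), and Krt19 did not pass (adjusted p = 0.0554). The partners of vimentin in the list, Nes and Plec, changed by -0.19 and 0.22 and did not pass.

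**Figure D4:**
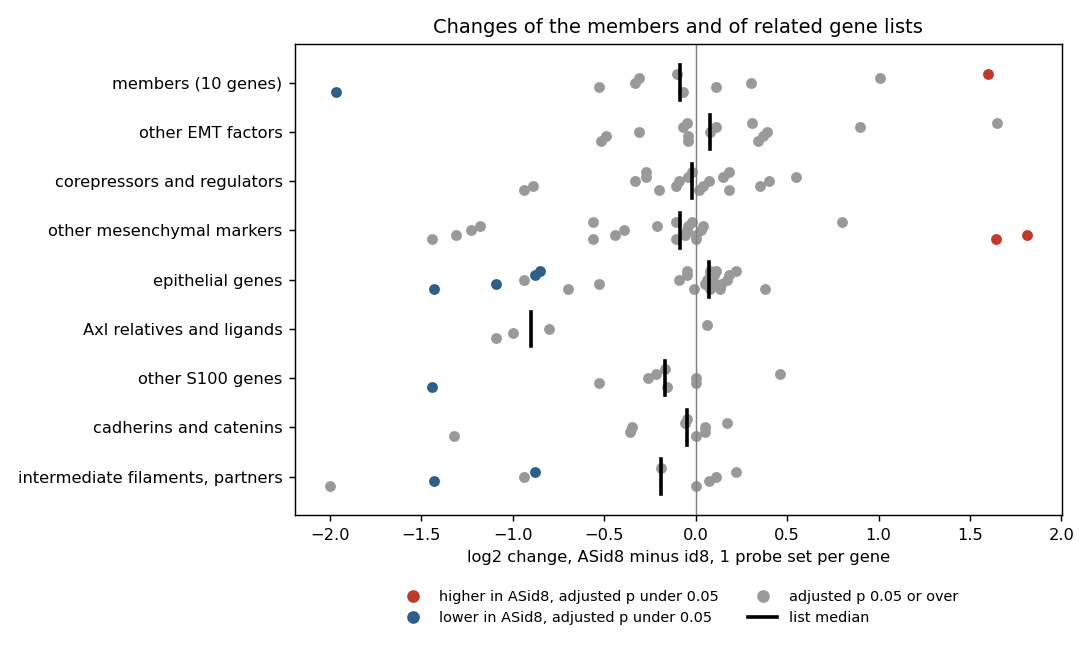
Log2 change (ASid8 minus id8) of each gene, 1 probe set per gene, for the 10 genes described here and 8 lists of related genes, with red points for genes that rose, blue for genes that fell, grey for adjusted p 0.05 or over, and a bar for each median. The other mesenchymal markers that passed, Ddr2 and Ncam1, rose, and the epithelial genes that passed, Krt18, Cldn3, Krt19 and Esrp2, fell.

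Several of these genes are also expressed by cells that ascites fluid can carry, so markers of other cell types were read beside them. Of 12 leukocyte markers 0 passed by limma (0 at an unadjusted p below 0.05), 9 were at background, and their summed signal was 722 to 825 in ASid8 and 686 to 767 in id8. The pan-leukocyte gene Ptprc was at background (3.34 to 3.51 on the 5 arrays), so no difference could be read for it. The 3 markers not at background were Cd68, Cd14 and Csf1r, with changes of 0.52, 0.38 and -0.07 (SE 0.48, 0.42 and 0.07). Cd68 read 6.88 and 6.59 in ASid8 against 6.71, 6.59 and 5.35 in id8. Cd14 read 7.63 and 7.15 in ASid8 against 6.60, 6.70 and 7.74 in id8. Without id8 replicate 3 the changes were 0.08, 0.74 and -0.04, and none passed. All 6 endothelial markers were at background. Of 9 fibroblast markers 6 were at background, Pdgfrb, Thy1 and Fap among them, and their summed signal was 6580 to 9033 in ASid8 and 7566 to 21040 in id8, most of it from Dcn (13.09 and 12.62 in ASid8, against 14.32, 14.30 and 12.81 in id8). Of 8 mesothelial and ovarian surface markers 2 fell (Krt18 and Krt19, named above) and 1 rose (Nr2f2, change 1.18, adjusted p = 0.0428). Msln was higher on average in ASid8 without passing (change 0.37, adjusted p = 0.631). The median change of the list was -1.19, and its summed signal was 26154 to 30414 in ASid8 and 42227 to 74338 in id8. The transcription factor Bnc1 read 8.35 and 7.71 in ASid8 against 11.78, 11.67 and 10.21 in id8 (change -3.19, adjusted p = 0.0665). The uroplakin gene Upk3b read 12.02 and 11.32 in ASid8 against 14.63, 14.61 and 12.66 in id8 (change -2.30, adjusted p = 0.172). Wt1, a mesothelial transcription factor, read 11.17 and 10.83 in ASid8 against 12.75, 12.72 and 11.83 in id8 (change -1.43, adjusted p = 0.105). For Bnc1, Upk3b and Wt1 every ASid8 array lay below every id8 array, and none of them passed. They and Msln were named after their values were seen. Without id8 replicate 3, 3 of the 9 fibroblast markers fell, and of the 8 mesothelial and ovarian surface markers 4 fell (Bnc1, Upk3b, Wt1 and Krt18) and 1 rose, against 9.85% and 8.04% of all genes in that fit. The part of these markers in the results above was not tested. In bulk RNA, fewer cells of one kind and less RNA per cell cannot be told apart.

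The genes whose values over the 5 arrays followed Snai2 and S100a4 most closely were named by the smallest root mean square difference of centred log2 values, over 1 probe set per gene. For Snai2 they were Ikbkg (0.088), Aldh3a1 (0.096) and Npnt (0.099), with changes of 1.50, 1.43 and 1.50. For S100a4 they were Fzd4 (0.077), Rgl1 (0.077) and Ccdc80 (0.078), with changes of -1.88, -1.82 and -1.90. Fzd4 was at background in ASid8 (6.16 and 6.04).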

How the data were processed

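Total RNA from 2 ASid8 and 3 id8 samples was biotin-labelled and hybridised to an Affymetrix mouse array. The submitters' processing notes name Affymetrix Expression Console, with no version and no summarisation method. The values the authors deposited, 1 per probe set, were read as log2 signals because of their range. Array medians of 7.39 to 7.47 nearly coincide, so no further normalization was applied, and a change in total RNA per cell cannot be seen.

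Of 22690 rows, 64 array controls were left out. Of the others, 20380 had 1 gene in the platform annotation, 691 had several and 1555 were not listed. All 22626 were fitted together with limma 3.58.1 (lmFit, then eBayes) under R 4.3.3, as a two-sided test without covariates (3 residual and 1.31 prior degrees of freedom). No filter was applied, and 226 probe sets had the same value on all arrays. With 2 and 3 arrays, the number of arrays limits the precision. Related genes used the probe set with the highest mean. The calculation was tested on simulated data in which every array varied independently and none stood apart. That test cannot show how id8 replicate 3 affects the calls. Alternatives were 1 probe set per gene, a filter on dim signals, quantile normalization, an intensity trend, array weights, id8 replicates 1 and 2 averaged, a replicate block, and leaving out each array.

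The genes and lists were chosen with earlier results of these data known. Every probe set of the 10 genes is named. Each list is represented by at most 4 called genes, taken by size of change, or by its smallest p if nothing was called, and for each called probe set the 3 genes with the most similar values. Other list members were named after their values were seen. Cd3e, Col1a1, Tie1 and Gfap had the smallest p in the leukocyte, fibroblast, endothelial and other-tissue lists (changes of -0.09, -1.44, 0.20 and 0.27, adjusted p of 0.410, 0.0747, 0.202 and 0.107). Nr2f2 rose (1.18, adjusted p = 0.0428) in the mesothelial list, in which Krt18 and Krt19 fell.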

Additional observations from a re-analysis of the deposited data

How the results depend on the processing

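Over all probe sets, 982 passed the threshold by limma, and 654 did with 1 probe set per gene, 3728 with array weights, and 0 both with id8 replicates 1 and 2 averaged (3680 at an unadjusted p below 0.05) and with the replicate block (3417). Leaving out 1 array gave 0 to 3559. Of the factor probe sets 1 passed, and 3 did with array weights, 0 with the averaged id8 replicates (2 at an unadjusted p below 0.05), 0 with the replicate block (2), and 0 to 2 without 1 array. Of the marker probe sets 1 passed, and 2 did with 1 probe set per gene, with the lowest 25% of signals left out, with quantile normalization or with an intensity trend, 4 with array weights, 0 with the averaged id8 replicates (2 at an unadjusted p below 0.05), 0 with the replicate block (2), and 0 to 1 without 1 array. Of 107 related genes 7 passed, and 11 did with the lowest 25% left out, 12 with quantile normalization, 28 with array weights, 0 with the averaged id8 replicates (20 at an unadjusted p below 0.05), 0 with the replicate block (19), and 0 to 26 without 1 array. Fits without an ASid8 array assume that the remaining one varies like the id8 arrays. The averaged and left-out fits have fewer samples, but the fit without id8 replicate 3 gave more calls over all probe sets. The cause of these differences was not tested.

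The 7 reversals of sign were all in probe sets that did not pass, and those of Snai1, Zeb1 and 1 of Axl are fitted values of signals at background. Snai1 turned to 0.03 with array weights and ranged from -0.16 to 0.05 with 1 array left out. The dim Zeb1 probe set turned to 0.01 with the replicate block and ranged from -0.02 to 0.01 with 1 array left out. Axl turned to -0.13 with array weights and ranged from -0.16 (without id8 replicate 3) to 0.24, and its dim probe set ranged from -0.04 to 0.21. In the replicate block fit the changes were 1.65 for Snai2 and -1.92 for S100a4 (adjusted p = 0.279 for both). Nothing in the labels says that replicates 2 and 3 of the groups were paired. Deviations from the group means correlated by 0.034 and 0.051 between same-numbered arrays, and by -0.057 to 0.057 between other-numbered ones. With 2 ASid8 arrays, their deviations from the group mean are mirror images, so these values cannot settle whether arrays were paired.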
